A study of Homo sapiens with 2 samples.

Results

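A set of 10 genes of the YAP-TEAD pathway were followed between a stable C33-A line that expresses CA9 and its empty-vector control, and 1 of them, ANKRD1, differed by 2-fold or more. The members were ANKRD1, CCN1, CCN2, AMOTL2, AXL, YAP1, WWTR1, TEAD1, TEAD4 and LATS2, which make 10 of the 19775 genes named on the array. All 22 probe sets that the platform annotation pairs with 1 of these symbols alone were taken. The set was chosen by the measured difference of ANKRD1 between these arrays, with the rest taken for their known roles, so the values are a description and none was tested. C33-A is an established human cervical carcinoma cell line. The CA9 line carried the full-length human CA9 cDNA in pcDNA3.0, and the vector line carried the empty vector. CA9 encodes carbonic anhydrase IX, a membrane enzyme that hydrates carbon dioxide. Both lines were grown in serum-containing RPMI medium, RNA was taken on the fourth day after seeding, and 1 array was hybridised per line. Whether a line was a single clone or a pool is not given in the sources used here. No probe set is paired with CA9, alone or with other genes, in the annotation used, so the transgene does not check the labels here.

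YAP1 and WWTR1, the latter also called TAZ, are transcriptional coactivators that have no DNA-binding domain of their own and act mainly through the TEAD factors. The Hippo kinases LATS1 and LATS2 phosphorylate them, which keeps them in the cytoplasm and favours their degradation. In adherent cells the pathway responds to cell density, stiffness of the substrate and tension of the actin cytoskeleton. ANKRD1, CCN1 and CCN2 are widely used readouts of its activity, and AMOTL2, AXL and LATS2 are also counted among its targets. AMOTL2 and LATS2 in turn restrain YAP1.

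The values are deposited intensities from RMA on a linear scale. A gene counts as measurable if its brightest single-gene probe set exceeds the floor on at least 1 array, where the floor is the median intensity of the non-control probe sets of both arrays, 40.8. This held for 13823 genes, and for 9 of the 10 members. All differences are on the log2 scale, with the vector line subtracted from the CA9 line, and a gene is called at 2-fold or more by its deposited values, also where the lower array lies under the floor. There were no replicates, so no p-value or standard error is given and a difference cannot be told apart from the spread between cultures. As a yardstick, the log2 differences of probe sets of 1 gene had a pooled SD of 0.31 over 6186 genes. Across all measurable genes the median difference was -0.03 and the SD was 0.38. Of the epithelial markers, KRT8 and KRT18 lay above the floor on both arrays, whereas EPCAM and CDH1 lay below it on both. KRT19 lay above it in the CA9 line alone, at 44.7 against 39.4 in the vector line. Some markers of other cell types, such as THY1 and MYOD1, also lay above the floor on both arrays.

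ANKRD1 encodes an ankyrin-repeat protein found at the sarcomere and in the nucleus, and is best known from heart and skeletal muscle. Its intensity was 272 in the CA9 line against 2738 in the vector line. Both arrays lay well above the floor, and the gene was 10.1-fold lower in the CA9 line, a log2 difference of -3.33. Of the 13823 measurable genes 96 were at least 2-fold lower, or 0.694%, and among these ANKRD1 had the third most negative difference. Of the 67 lower genes with both arrays above the floor, ANKRD1 had the most negative difference. ANKRD1 is represented by 1 probe set, so no second probe set checks the value. Among genes with both arrays above the floor, those with differences nearest to it were CPOX at -2.86, ENC1 at -2.30 and OGFRL1 at -2.05, over 2 arrays.

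The other members differed little between the lines. Of the 13823 measurable genes 186 were called in either direction, or 1.35%, against 1 of the 9 measurable members. That member is the gene the set was chosen for, so nothing is read from the count. The differences of the 8 other measurable members ran from -0.17 to 0.48, with 3 above and 5 below 0 and a median of -0.08. All 8 fell short of 1.5-fold, as did 90.0% of all measurable genes. Counted by probe set, 15 of these members' probe sets exceeded the floor, and their differences ran from -0.32 to 0.48, with 8 above and 7 below 0. Over 8 alternatives of scaling, probe set, floor and pseudocount, CCN2 stayed above 0 and YAP1 and TEAD1 stayed below 0, while CCN1, AMOTL2, AXL, TEAD4 and LATS2 changed sign in at least 1. AXL, with _s_at probe sets alone, had a value in 7 of the 8. The floor changes no member's difference, and the choice of probe set could not change that of CCN2 or AMOTL2, with 1 probe set each.

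**Figure D1:**
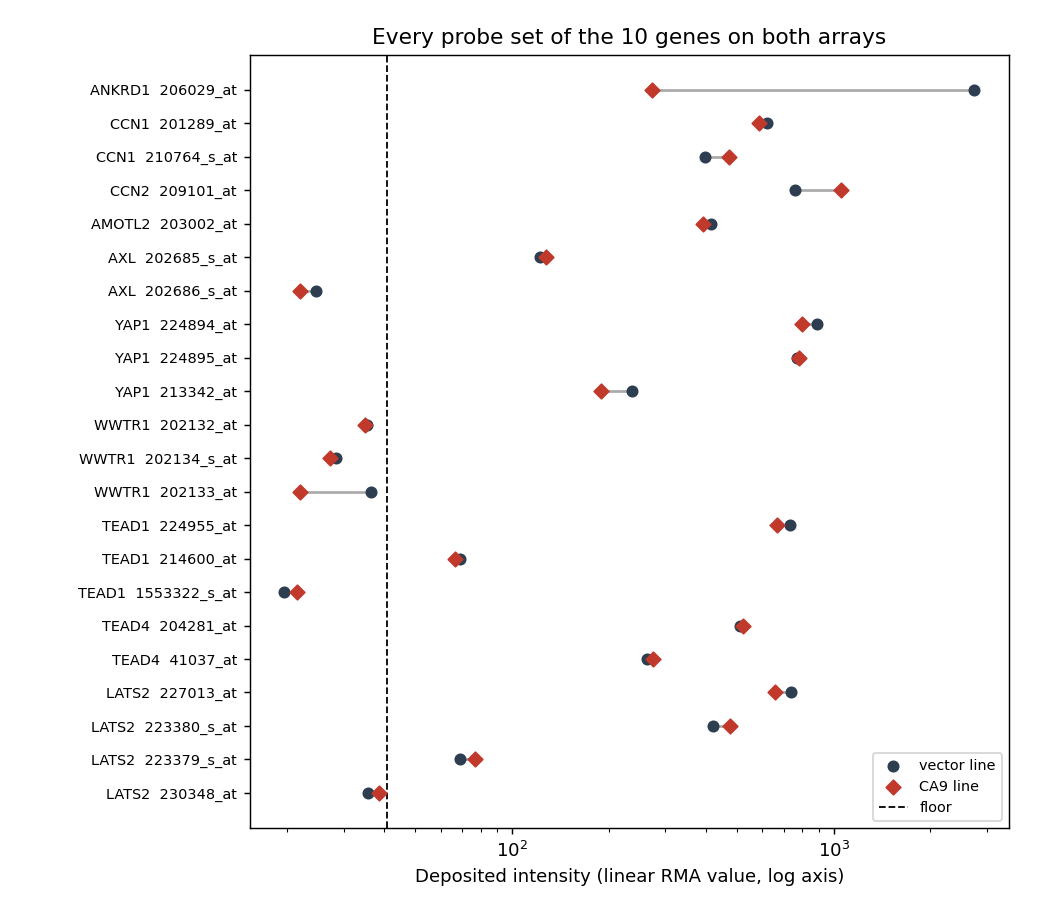
Deposited intensity (linear RMA value on a log axis) of all 22 probe sets of the 10 genes, with 1 point for the vector line and 1 for the CA9 line, and the floor as a dashed line. The points of ANKRD1 lie far apart, at 272 and 2738, while those of the other probe sets above the floor lie close together.

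Among the secreted targets, CCN2, a matricellular protein also called CTGF, gave 1056 in the CA9 line against 757 in the vector line. Its difference of 0.48 was the largest of the other members and pointed the opposite way from that of ANKRD1, and 91.6% of measurable genes had a lower difference. That value rests on 1 probe set and falls short of 1.5-fold. CCN1, its paralog also called CYR61, gave opposite signs in its 2 probe sets. The brighter had 587 in the CA9 line against 623, a log2 difference of -0.09, and the other 473 against 398, a difference of 0.25. CCN1 is therefore given no direction.

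AMOTL2, a junctional scaffold that binds YAP1, gave 393 in the CA9 line against 417 in the vector line, a difference of -0.08. AXL, a receptor tyrosine kinase, had 128 in the CA9 line against 122 in the vector line, a difference of 0.06, and its second probe set lay below the floor on both arrays. Both differences lay within the SD between probe sets, as did those of 64.6% of all measurable genes. LATS2, at once a kinase of the pathway and a target of it, was measured by 3 probe sets above the floor. The brightest had 659 in the CA9 line against 739, a difference of -0.17, whereas the others had differences of 0.17 and 0.16. The sign for LATS2 thus depended on the probe set.

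Of the coactivators, YAP1 gave 797 in the CA9 line against 885 in the vector line in its brightest probe set, a difference of -0.15. Its other probe sets had differences of 0.02 and -0.32. WWTR1 lay below the floor on both arrays in all 3 of its probe sets, the brightest at 34.8 in the CA9 line against 35.4 in the vector line. It is the member that was not measurable, and no fold is given for it.

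The DNA-binding partners were near equal in the lines. TEAD1 had 669 in the CA9 line against 730.5 in the vector line, a difference of -0.13, with another probe set at -0.05 and the last below the floor. TEAD4 had 523 in the CA9 line against 512 in the vector line, a difference of 0.03, with its second probe set at 0.07. These values are RNA levels, and the phosphorylation and location of YAP1 were not measured.

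**Figure D2:**
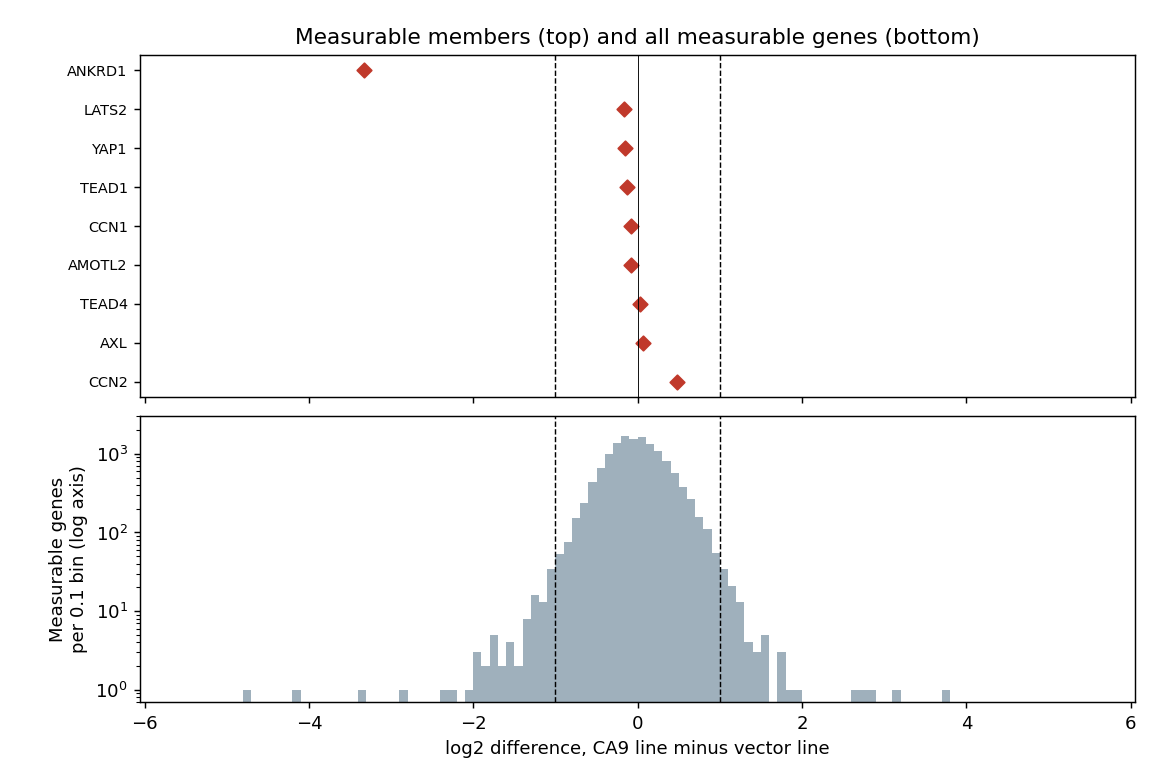
The log2 difference (CA9 line minus vector line) of the 9 measurable members, 1 diamond each, above a histogram of all 13823 measurable genes, with gene counts on a log axis and dashed lines at 2-fold. ANKRD1, at -3.33, stands outside the dashed lines, and the 8 other members lie between -0.17 and 0.48.

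ANKRD1 was called lower, while CCN2, at 0.48, fell short of 1.5-fold. Both carry, just before their annotated start, the motif that TEAD factors bind. The 250 bases before the start are shown for these genes, and for THBS1, a further target that was lower in the CA9 line. They are from RefSeq on GRCh38.p14, all on the strand of the gene. Capitals mark matches to GGAATG, the TEAD motif, on either strand, and in ANKRD1 also a match to TGANTCA. That is the AP-1 motif searched with any middle base, which is T in ANKRD1.
ANKRD1, chr10:90921088-90921337, minus strand: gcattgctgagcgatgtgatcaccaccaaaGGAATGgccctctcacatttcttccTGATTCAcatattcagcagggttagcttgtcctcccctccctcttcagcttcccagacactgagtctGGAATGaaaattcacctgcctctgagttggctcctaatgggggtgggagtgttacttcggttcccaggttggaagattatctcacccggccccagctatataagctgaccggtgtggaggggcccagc
CCN2, chr6:131951373-131951622, minus strand: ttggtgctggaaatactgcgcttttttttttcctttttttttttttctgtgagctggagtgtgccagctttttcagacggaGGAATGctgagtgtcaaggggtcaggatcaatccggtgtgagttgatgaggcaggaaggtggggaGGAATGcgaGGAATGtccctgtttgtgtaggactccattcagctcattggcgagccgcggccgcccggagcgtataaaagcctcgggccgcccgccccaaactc
THBS1, chr15:39580829-39581078, plus strand: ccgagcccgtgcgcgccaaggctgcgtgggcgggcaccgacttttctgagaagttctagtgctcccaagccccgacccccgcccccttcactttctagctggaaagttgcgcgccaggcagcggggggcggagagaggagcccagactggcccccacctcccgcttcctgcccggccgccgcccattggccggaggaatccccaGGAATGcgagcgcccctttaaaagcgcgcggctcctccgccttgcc

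ANKRD1 holds GGAATG from -220 to -215 and from -128 to -123 relative to the start, with the AP-1 motif from -195 to -189. CCN2 holds GGAATG at 3 places, from -169 to -164, from -104 to -99 and from -95 to -90. A single match lies from -46 to -41 in THBS1. Of 35116 RefSeq promoters cut to the same 250 bases, 11.9% hold at least 1 GGAATG on either strand, 0.94% hold at least 2 and 0.083% at least 3. The AP-1 motif, with any middle base, occurs in 6.57% of them. RefSeq windows matched 7 of the 10 members, namely ANKRD1, CCN2, AMOTL2, AXL, YAP1, WWTR1 and LATS2, with 10 windows in all. The TEAD motif was present in at least 1 window of 5 of these members, ANKRD1, CCN2, AMOTL2, AXL and YAP1. Counted by window, as the share of all promoters is, it was present in 5 of 10. The members were taken for known roles in the pathway, so nothing is read from this count. No member window held a CArG box, the site of serum response factor, which 1.16% of all windows hold. The matches are letters in a short window, and binding was not measured.

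**Figure D3:**
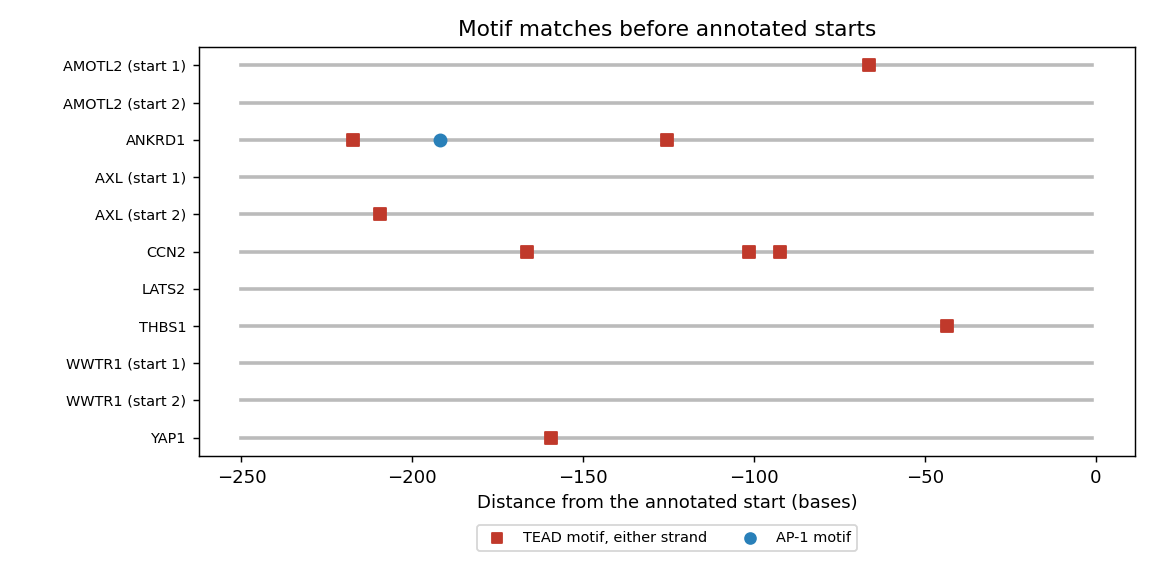
Positions of motif matches, as distance in bases from the annotated start, in the 10 windows of members and the window of THBS1; squares mark the TEAD motif on either strand and circles the AP-1 motif. ANKRD1 carries 2 squares and a circle, and CCN2 carries 3 squares.

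A list of 23 other genes reported as YAP-TEAD targets was followed to see whether they differed along with ANKRD1. Of these, 21 had a single-gene probe set and 18 were measurable. A single gene was at least 2-fold lower and none was at least 2-fold higher, against 0.694% and 0.651% of all measurable genes. The median difference was -0.02, or -0.22 with all probe sets averaged, beside -0.03 over all measurable genes, with 8 above and 9 below 0. The gene called was THBS1, the matricellular protein thrombospondin 1, at 119 in the CA9 line against 376 in the vector line, a difference of -1.66. Its other probe sets with both arrays above the floor had -1.73 and -2.02, and the average with dim probe sets included was -0.89, short of 2-fold. THBS1 also responds to TGF-beta and to serum, and which signal its difference follows was not tested. The next farthest from 0 were TGFB1, a transforming growth factor, at 0.70 and RBMS3, an RNA-binding protein, at 0.58, both short of 2-fold. A second probe set of TGFB1 had 0.16, and 1 of the 7 probe sets of RBMS3 exceeded the floor.

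Upstream of YAP1, 21 of 26 listed Hippo genes were measurable and none was called, against 1.35% of all measurable genes. At that share a list of this size can be without calls, so nothing is read from the count. Their median difference was -0.13, with 7 above and 14 below 0, beside -0.03 and 53.0% below 0 over all measurable genes. The median was -0.03 after quantile normalization and -0.02 after removal of a loess trend, beside 0.002 and 0.004 over all measurable genes. STRN4, a subunit of a phosphatase complex that acts on the Hippo kinases, was nearest to 2-fold, with 248 in the CA9 line against 130 in the vector line, a difference of 0.92. It is the gene of this list that passed 2-fold after quantile normalization or removal of a loess trend. AMOTL1, a paralog of AMOTL2, had -0.52 in its brightest probe set and 0.59 in another. DCHS1, an atypical cadherin, had 54.3 in the CA9 line and lay below the floor in the vector line, at 39.5, while its second probe set had 44.5 against 47.4, a difference of -0.09. The kinases that activate LATS, STK3 and STK4, had differences of -0.35 and -0.16, and LATS1 had -0.42. Others of the list went the opposite way, such as SAV1 at 0.43 and TAOK2 at 0.23.

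Of 9 other TEADs, cofactors and YAP partners 7 were measurable, with a median of -0.07. That median had no settled sign, at 0.28 once _x_at and _s_at probe sets were left out and 0.34 with the floor at the 75th percentile. VGLL1, a cofactor that binds TEADs at the surface used by YAP1, was 2.02-fold higher, at 142 in the CA9 line against 70.4 in the vector line. Its call did not hold with equal array medians, with a pseudocount of 16 or as an average of its probe sets, and its difference was 0.12 without probe sets named _x_at or _s_at. TP73, a p53 relative, had 0.58, and VGLL4, which opposes YAP1 at TEADs, had -0.24. A second probe set of VGLL4, above the floor on both arrays, had -0.06. Of the remaining TEAD factors, TEAD2 had 172 in the CA9 line against 160.3 in the vector line, a difference of 0.10. TEAD3 had 45.3 against 53.1, a difference of -0.23, with values little above the floor of 40.8.

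ANKRD2, a muscle ankyrin-repeat paralog, had 79.0 in the CA9 line against 48.7 in the vector line, a difference of 0.70 in the opposite direction. ANKRD23, the third of that family, lay below the floor on both arrays. Of the other CCN genes, CCN3 had a difference of -0.15, CCN5 rested on a vector value below the floor, at 43.3 against 36.7, and CCN4 and CCN6 lay below the floor on both arrays. The AXL relatives TYRO3 and MERTK had -0.07 and 0.52, and their ligands GAS6 and PROS1 each had -0.30. None of the 7 measurable genes of this list was called, against 1.35% of all measurable genes, from which nothing is read for so short a list. Its median was -0.07, and 0.24 with all probe sets averaged.

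Serum response factor and its MRTF cofactors share targets with YAP-TEAD, and 13 of 16 listed factors and targets were measurable. Their median difference was -0.04, and 0.12 with all probe sets averaged. MRTFA, an actin-regulated coactivator, was called higher at 1.11 in a probe set named _x_at, while its other probe sets above the floor had 0.68, 0.37 and -0.28. The direction for MRTFA turned without probe sets of that kind. MYL9, a myosin light chain, had 0.60 and FHL2, a LIM-domain protein, had -0.54, both short of 2-fold. The other probe set of MYL9 lay below the floor on both arrays.

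**Figure D4:**
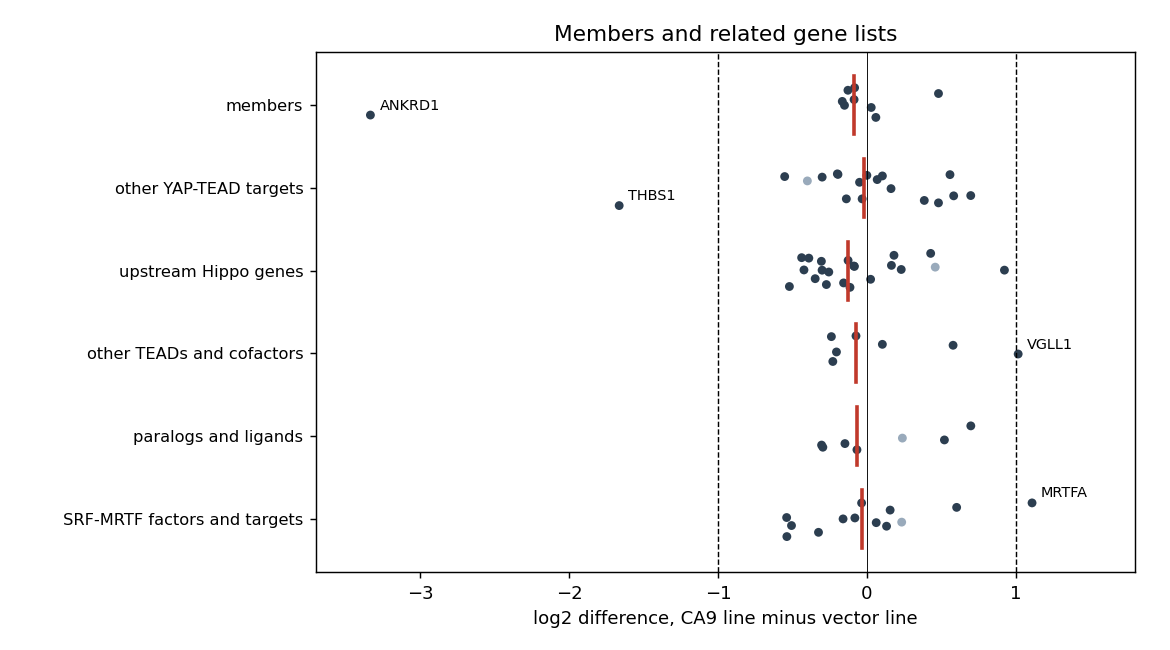
The log2 difference (CA9 line minus vector line) of each measurable gene in the 10-gene set and the 5 related lists; dark points have both arrays above the floor and pale points 1, red bars are medians and dashed lines mark 2-fold. ANKRD1 and THBS1 lie to the left of the dashed line, and VGLL1 and MRTFA lie just to the right.

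Because ANKRD1 differed while the other targets mostly did not, the genes beside it on chromosome 10 were examined. This comparison was chosen after the values were seen. Of the 10 nearest measurable protein-coding genes, 5 on each side in RefSeq order, 9 had a difference below 0 and 4 were called lower, against 0.694% of all measurable genes by the same rule. Of these 4, PCGF5, PANK1 and IFIT5 had both arrays above the floor, and FGFBP3 did not. PCGF5, a Polycomb subunit and the next measurable gene, had 208 in the CA9 line against 723 in the vector line, a difference of -1.80. A second probe set of PCGF5 had -2.15, while those below the floor in the CA9 line alone had -2.04 and -0.47. On the other side PANK1, a pantothenate kinase, had -1.05 and IFIT5, an interferon-induced protein, had -1.02 in 1 probe set and -0.24 in the other. FGFBP3, a binding protein of fibroblast growth factors, was at 24.3 in the CA9 line, below the floor, against 54.2, which is at least 1.33-fold lower against the floor, and HECTD2 was likewise below the floor in the CA9 line, at 28.2 against 50.4. HTR7, a serotonin receptor, was the neighbour above 0, at 0.46.

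The median of these 10 neighbours was -0.66. Over 12369 genes with 5 measurable neighbours on each side, 0.0323% had neighbours with as low a median, ANKRD1 itself included. These windows overlap one another, and those of genes beside ANKRD1 contain ANKRD1. The share is a description and not a p-value. ANKRD1 lay within a run of 13 consecutive measurable genes below 0, from RPP30 to CYP26A1. How often such runs occur elsewhere was not counted. Across the 480 measurable genes of chromosome 10 the median without ANKRD1 was -0.11 and 63.7% lay below 0, against 53.0% of all measurable genes. The neighbours of the other 8 measurable members had medians from -0.24 for CCN1 to 0.20 for AXL. With 10 genes on each side the median beside ANKRD1 was -0.34. Copy number and chromatin were not measured.

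**Figure D5:**
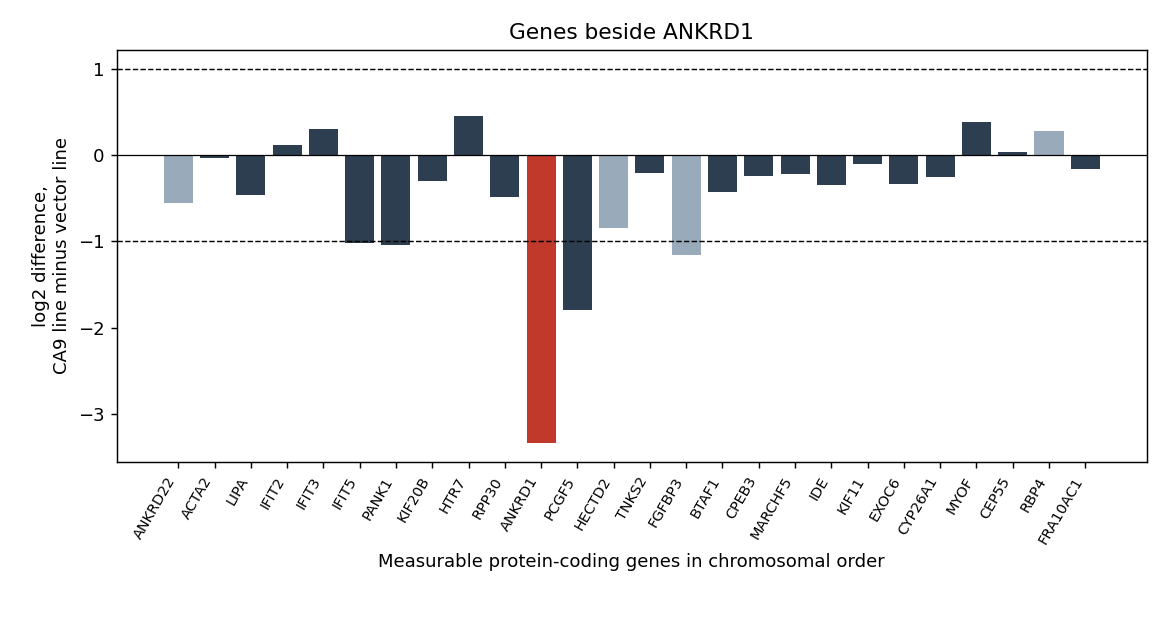
The log2 difference (CA9 line minus vector line) of ANKRD1, in red, and the measurable protein-coding genes around it on chromosome 10 in RefSeq order; dark bars have both arrays above the floor, pale bars 1, and dashed lines mark 2-fold. The bars from RPP30 to CYP26A1 all lie below 0, with PCGF5, beside ANKRD1, at -1.80.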

How the data were processed

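Each probe set has 1 deposited intensity per array, made by the authors with RMA, per the submitters' processing notes, whose version and settings are not given in the sources used here. The values run on a linear scale, as their range shows, although RMA usually gives log2, so log2 was taken with no pseudocount. Gene names came from a platform annotation, updated through Entrez identifiers to RefSeq for 41043 of 41097 single-gene probe sets. The brightest single-gene probe set stands for a gene. Calls were counted over all 13823 measurable genes.

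The members and lists were chosen with earlier results of these data known. Named genes were all members, their paralogs and ligands, and, of every other list, the called genes and those farthest from 0, up to 3, plus the 3 genes nearest to ANKRD1 in difference with both arrays above the floor. Genes beside ANKRD1, and further Hippo genes and TEAD factors, were named after their values were seen. No marker of another cell type was called, against 1.35% of all measurable genes, from which nothing is read for so few markers. The blood markers PTPRC and CD14 had -0.95 and 0.63, each with 1 array below the floor. Summed intensities, CA9 line first, were 271 and 197 for the epithelial markers. They were 557 and 485 for fibroblast, 181 and 152 for endothelial, 251 and 246 for muscle and 114 and 130 for blood markers. The number of arrays limits the precision. Alternatives were array scaling, choice of probe set, floor, pseudocount and size of call. Python 3.11.15, numpy 2.4.6, pandas 2.3.3, statsmodels 0.14.6 and matplotlib 3.10.9 were used.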

Additional observations from a re-analysis of the deposited data

Results flagged for a closer look

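The bacterial hybridisation spike-ins, which entered no comparison, had a median log2 difference (CA9 array minus vector array) of 0.41, and 17 of their 18 probe sets lay above 0. Whether this bears on the differences of the members was not tested.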

How the results depend on the processing

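ANKRD1 was lower under all 8 alternatives of scaling, probe set, floor and pseudocount, from -3.40 to -3.25 on the log2 scale, and it was the 1 member called in each of them and with 1.5-fold calls. CCN2 stayed between 0.42 and 0.57. ANKRD1 and CCN2 have 1 probe set each, so the choice of probe set and the floor could not change their values. The scalings and the pseudocount alone could. Averaging all probe sets gave 44 higher and 48 lower genes in place of 90 and 96, a pseudocount of 16 gave 42 and 51, the floor at the 75th percentile gave 56 higher genes, and 1.5-fold calls gave 731 higher and 655 lower. Equal array medians gave 69 higher and 123 lower. THBS1 was at -0.89 as an average of its probe sets, dim ones included, and MRTFA turned to -0.28 once _x_at and _s_at probe sets were left out. The median beside ANKRD1 ran from -0.72 to -0.39 over the 8 alternatives, which were added after the values were seen. No paired analysis was possible because each line has 1 array, so leaving out a replicate was not possible either.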
